A study of Mus musculus with 23 samples.

Results

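The activated cardiac fibroblast genes described here are Postn, Tnc, Comp, Cilp, Meox1, Fap, Acta2, Ltbp2 and Ccn4, 9 genes of 55487 gene identifiers quantified in whole mouse hearts. They were taken by name as markers of fibroblasts that have left the resting state, without reference to a threshold, and all 9 were among the 15732 genes with enough reads to be tested. The hearts came from female wild-type C57BL/6J mice, an inbred strain, aged 10 weeks and carrying no engineered allele. In the ISO arm mice were given isoproterenol, which stimulates beta-adrenergic receptors, at 300 mg/kg. In the LPS arm they were given lipopolysaccharide, a molecule of bacterial membranes that Toll-like receptor 4 senses, at 2.5 mg/kg. Untreated mice formed a separate baseline group for either arm, and treated hearts were taken on day 1 and day 7, with 3 libraries at ISO day 1 and 4 in each of the other 5 groups. The labels give the cell type as various, so each value sums over all cells of a heart, and more fibroblasts cannot be told apart from more RNA per fibroblast.

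In the uninjured heart, fibroblasts hold the collagen network in place and express little of the genes described here. After injury or mechanical load, transforming growth factor beta (TGF-beta) released from latent stores in the matrix acts through SMAD proteins, and fibroblasts divide, secrete matrix and may build contractile stress fibres; such cells are called activated fibroblasts or myofibroblasts. Later, in mature scar, some of these cells shut down the contractile program and express genes of cartilage and tendon, including Comp and Cilp, a state known as the matrifibrocyte. The 9 genes fall into 5 roles: matricellular and matrix proteins (Postn, Tnc, Comp, Cilp, Ccn4), a relative of the latent TGF-beta binding proteins (Ltbp2), a contractile actin (Acta2), a transcription factor (Meox1) and a cell-surface protease (Fap).

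The genes lie on 9 chromosomes, with spans given below for GRCm38 from GENCODE M21, and promoter sequence is shown for those 3 of them that share a short element just before a transcription start. RefSeq promoter windows of the same assembly, taken here from 250 bases before the start, were on hand for Postn, Tnc, Cilp, Acta2 and Ltbp2 (7 windows), and not for Comp, Meox1, Fap and Ccn4. The element TATATAA, a form of the TATA box, was noticed on reading the windows and then searched on both strands. It was present in 3 of the 7 windows and in 3.04% of all 32851 windows of the table. As the element was picked from these same windows, the contrast is a description and not a test. Stretches around it are given below on the strand of the gene, with TATATAA in capitals.
Postn: cagcccagagcTATATAAactcagctctcc
Tnc: aaggagctcccTATATAAgcctgccaaagc
Cilp: accagctgtgcTATATAAgacggctggact
The Postn stretch is chr3:54361068-54361097 on the plus strand, and the element runs from -28 to -22 relative to the start. The Tnc stretch is chr4:64046947-64046976 on the minus strand, before the inner of its 2 RefSeq starts, with the element from -29 to -23. The Cilp stretch is chr9:65265139-65265168 on the plus strand, with the element from -30 to -24. So 1 gene that fell at LPS day 1 (Cilp) and 2 that rose at ISO day 1 (Postn and Tnc) have the element at nearly the same place. A link between the element and these changes was not tested.

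A second search looked on both strands for motifs of factors known to act in fibroblasts. The TEAD motif GGAATG was present in the Acta2 window from -146 to -141, and in 12.6% of all windows. The short SMAD motif CAGACA was found, as its reverse complement, in the Acta2 window from -236 to -231 and in the inner Tnc window from -71 to -66, and in 17.1% of all windows. The CArG box, bound by serum response factor, was searched in its strict consensus form. That form, the AP-1 motif TGANTCA and the full SMAD motif GTCTAGAC had no match in the 7 windows. Their shares of all windows were 1.47%, 6.75% and 0.167%. Near matches were not counted, and the Acta2 window holds ccctatatgg and ccttgtttgg, which are close to the CArG consensus. These are matches of letters in the windows searched, and none is a measured binding site.

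The libraries held between 20910371 and 30368954 estimated gene reads. Changes were tested with edgeR's quasi-likelihood test across all tested genes, and a gene is called changed when its Benjamini-Hochberg adjusted p is under 0.05. Levels of a gene between hearts are given as CPM, reads scaled to the size of the library. The library labelled ISO day 7 replicate 3 stood apart from its group: 4.63% of all genes were at least 2-fold off the median of the other ISO day 7 hearts, against 2.28% to 3.72% for the other 3. By that share, which counts both directions, it was not exceptional, since LPS day 1 replicate 2 (5.92%) and LPS day 1 replicate 3 (4.59%) had a larger and a similar share off their own group. Its share of genes at least 2-fold above was the highest of all libraries, 3.27% against 0.871% to 2.14%. Of the 9 genes, 6 were at least 2-fold above the median of the other hearts, against at most 1 in any other library. Because all groups share an estimate of the spread, that library also widens the errors in comparisons it does not belong to. Counts are therefore given with and without it. The library stands apart in these same genes, so an adjusted p without it describes its influence and is no separate support for a change. Markers of the hearts' main cell type were abundant in every library, for instance the cardiac actin Actc1, at 8698 ± 782 CPM (SD, n = 4) at ISO baseline. Their level was not steady. The 10 cardiomyocyte markers summed to 89701 to 95224 CPM at ISO baseline and 62435 to 83655 CPM at ISO day 1. In the LPS arm they summed to 83867 to 89036 CPM at baseline and 53358 to 62163 CPM at day 1.

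In untreated hearts the 9 genes covered a wide range of levels per length. In TPM, a length-scaled level that allows genes to be compared, Acta2 led the ISO baseline at 108 ± 26.6 TPM (SD, n = 4), and smooth muscle of vessels is its usual main source. Postn followed at 8.48 ± 2.03 TPM (SD, n = 4). Meox1 at 3.98 ± 0.992 TPM and Cilp at 3.85 ± 0.337 TPM (SD, n = 4 each) did not differ beyond their spread. Comp stood at 1.85 ± 0.454 TPM, Fap at 0.958 ± 0.245 TPM and Ltbp2 at 0.645 ± 0.0759 TPM (SD, n = 4 each). Ccn4 at 0.423 ± 0.0648 TPM and Tnc at 0.187 ± 0.0513 TPM (SD, n = 4 each) were the lowest of the 9. At ISO day 1 the order was different. Tnc, lowest before, reached 5.16 ± 1.35 TPM, above Cilp at 2.31 ± 0.611 TPM (SD, n = 3 each). Ltbp2 at 2.10 ± 0.261 TPM and Ccn4 at 0.697 ± 0.107 TPM stood above Fap at 0.435 ± 0.137 TPM, and Comp became the lowest at 0.189 ± 0.159 TPM (SD, n = 3 each). None of the 9 genes was called between the ISO and LPS baselines, a comparison in which 1.21% of all genes were called.

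**Figure D1:**
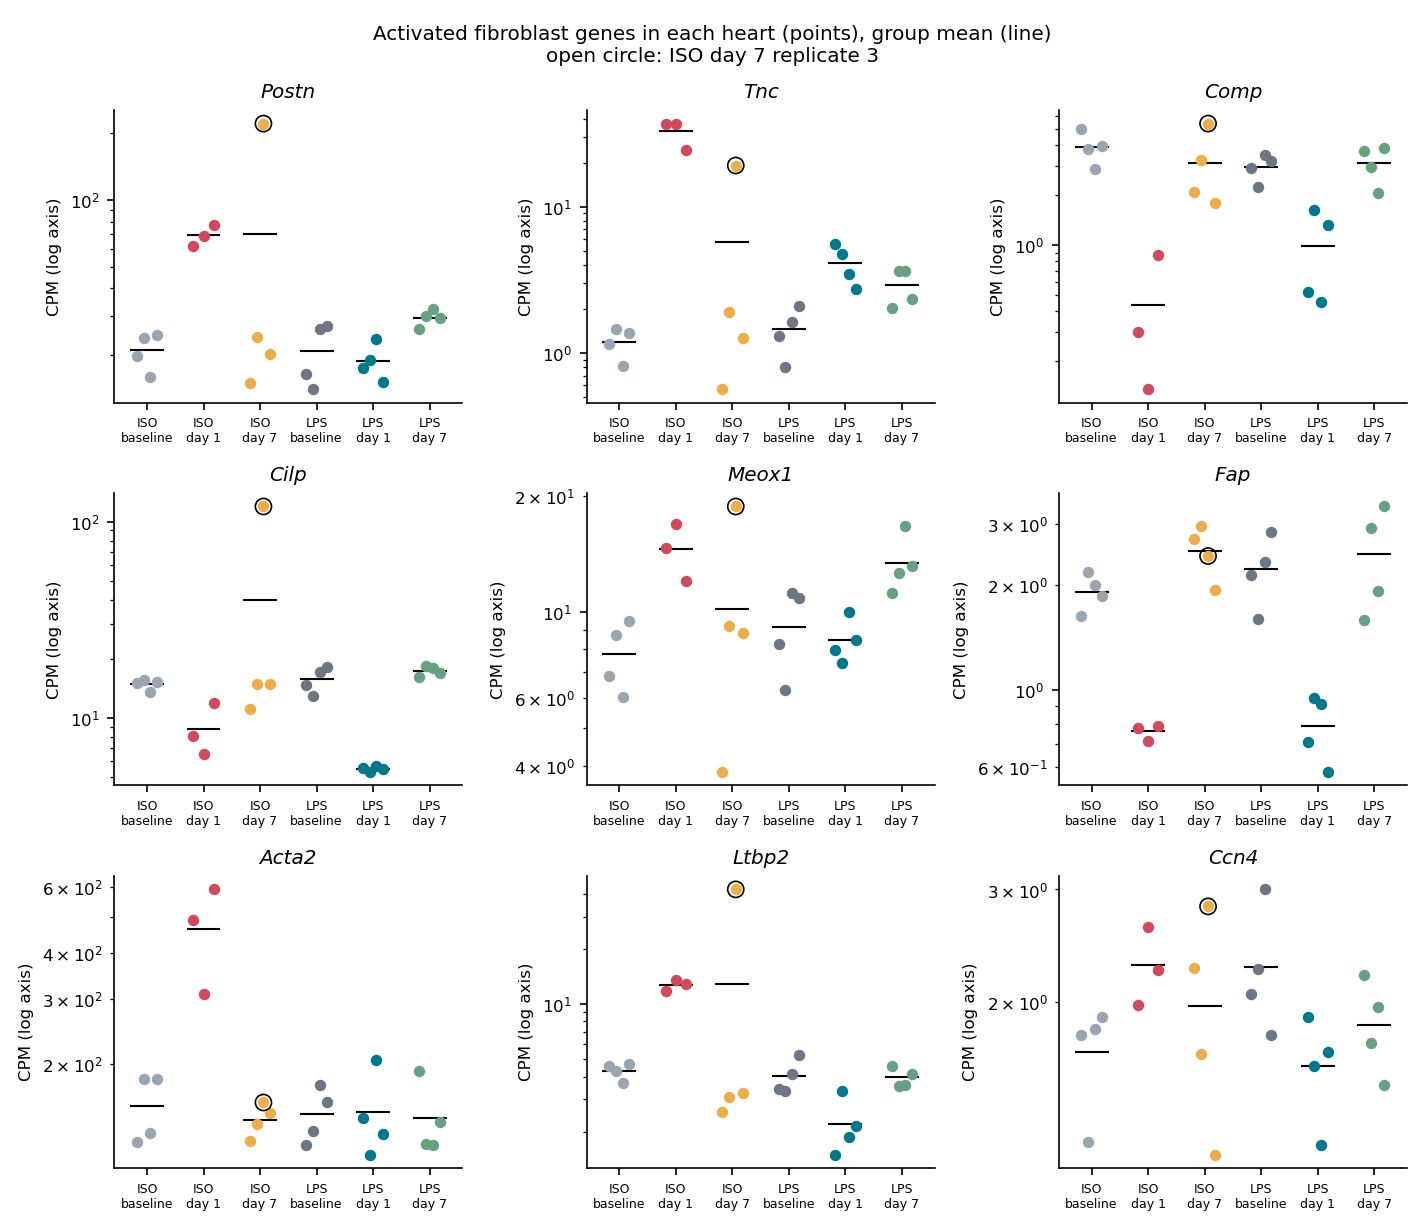
CPM on a log axis for each of the 9 genes in each heart (points), by group, with the group mean as a line and ISO day 7 replicate 3 ringed. Postn, Tnc, Ltbp2 and Acta2 are high in all 3 ISO day 1 hearts, Comp and Fap are low in ISO day 1 and LPS day 1 hearts, and the ringed heart lies far above its group for Postn, Tnc, Cilp and Ltbp2.

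One day after isoproterenol the 9 genes moved in both directions. Tnc, Postn, Acta2, Ltbp2 and Meox1 were called higher and Comp and Fap lower, 5 and 2 of the 9, where 32.9% of all genes were called higher and 32.8% lower. Without ISO day 7 replicate 3, Cilp joined the genes called lower, giving 5 and 3, against 33.3% and 33.4% of all genes. In all 9 genes the 3 treated hearts lay outside the range of the 4 untreated ones, 6 above and 3 below, while 33.4% of all genes were separated upward and 33.3% downward. The median log2 change of the 9 genes was 0.91 against -0.01 for all genes tested. The number called higher fell to 3 without ISO day 1 replicate 2, when Ltbp2 and Meox1 were no longer called. In this comparison 65.7% of all genes were called, so the counts of calls lie near the background.

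One day after lipopolysaccharide no gene of the 9 was called higher, and Comp, Cilp and Fap were called lower, where 33.2% of all genes were called higher and 33.0% lower. Without ISO day 7 replicate 3, Tnc was called higher and Ltbp2 and Ccn4 were added to those called lower, giving 1 and 5, against 33.7% and 33.6% of all genes. Leaving out ISO day 7 replicate 1 also brought Tnc under the threshold (adjusted p = 0.0372). The hearts of the groups did not overlap for Tnc upward and for Comp, Cilp and Fap downward, against 29.3% and 28.9% of all genes. The median log2 change of the 9 genes was -0.51, with all genes tested at 0.00.

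**Figure D2:**
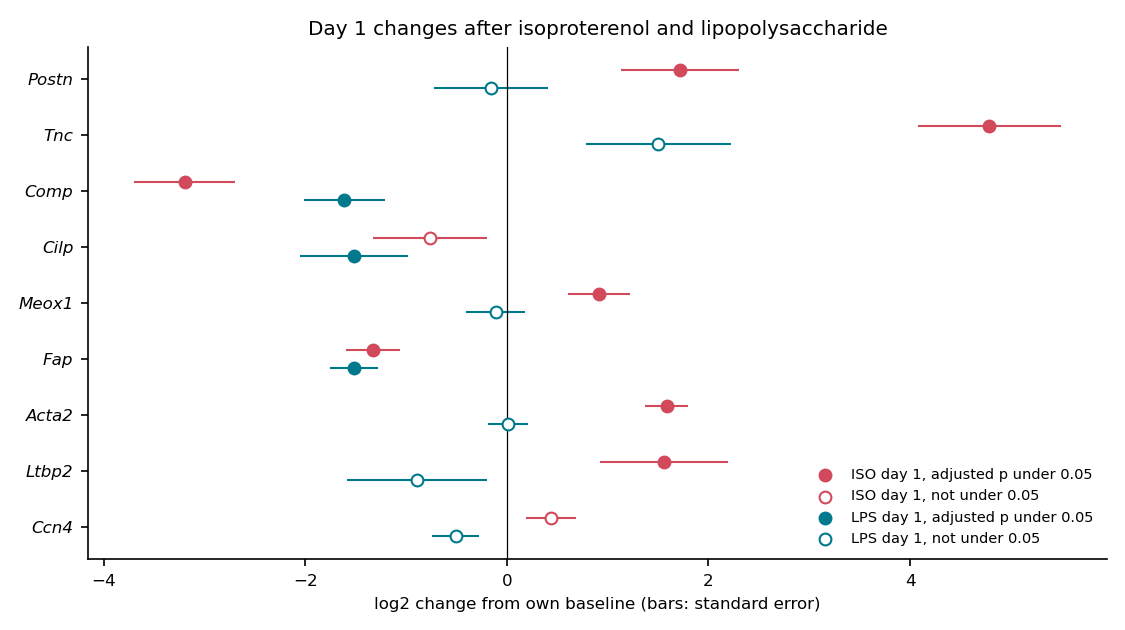
Log2 change from the arm's own baseline for each gene at ISO day 1 and LPS day 1, with standard errors from edgeR; filled points have an adjusted p under 0.05. Tnc at 4.79 and Comp at -3.19 are the extremes after ISO, and Comp, Cilp and Fap are the filled points after LPS.

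Among the matricellular genes, Tnc (chr4:63959785-64047015, minus strand), which encodes tenascin-C, a large glycoprotein of remodelling and embryonic matrix that loosens cell adhesion, had the largest change of the 9. It measured 1.15, 1.46, 0.815 and 1.37 CPM in the ISO baseline hearts and 37.0, 36.9 and 24.4 CPM at ISO day 1. The lowest treated heart was far above the highest untreated one. The log2 change was 4.79 (SE 0.71, edgeR adjusted p = 3.32e-06), about 27.6-fold. In the LPS arm Tnc measured 1.30, 0.803, 1.62 and 2.10 CPM at baseline and 5.58, 4.78, 3.48 and 2.74 CPM at day 1. All 4 treated hearts were again above all untreated ones, by much less: the log2 change was 1.504 (SE 0.72) with an edgeR adjusted p of 0.0711. Without ISO day 7 replicate 3 the change was 1.503 (SE 0.30) and the adjusted p 1.65e-04.

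Postn (chr3:54361109-54391037, plus strand) encodes periostin, a matricellular protein that marks activated fibroblasts in lineage studies. It measured 19.8, 23.95, 15.97 and 24.7 CPM at ISO baseline and 61.8, 68.8 and 77.3 CPM at ISO day 1. The treated hearts formed a tight, separate group, 3.29-fold higher (log2 change 1.72, SE 0.58, edgeR adjusted p = 0.0128). The error came largely from the heart at day 7 that stands apart, since without it the SE was 0.19 and the adjusted p 8.68e-08. After LPS, Postn measured 17.6, 19.0, 23.6 and 15.1 CPM at day 1, within the baseline values of 16.5, 14.1, 26.3 and 27.2 CPM. Its log2 change there was -0.16 (SE 0.56), so neither a rise nor a fall was detected.

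Ccn4 (chr15:66891320-66923201, plus strand) encodes WISP1, a secreted CCN family protein induced by WNT signals. It is weakly expressed, with 25 to 86 reads per library, and had the smallest log2 change of the 5 matrix genes at ISO day 1. It measured 1.78, 1.21, 1.81 and 1.90 CPM at ISO baseline and 1.98, 2.62 and 2.25 CPM at ISO day 1. The groups were separated by a narrow gap, and the log2 change of 0.44 (SE 0.25) was not called (edgeR adjusted p = 0.121), though it was under effective-length offsets (adjusted p = 0.0280) and with limma on log2(TPM + 0.1) (0.0254) and log2(TPM + 1) (0.0308). In the LPS arm it measured 2.06, 2.25, 3.00 and 1.78 CPM at baseline and 1.90, 1.59, 1.2 and 1.68 CPM at day 1, with overlapping hearts and a log2 change of -0.51 (SE 0.23, adjusted p = 0.0575). That value was called under effective-length offsets (0.0380), without ISO day 7 replicate 3 (0.0376) or 4 (0.0335), without LPS baseline replicate 4 (0.0346) and without LPS day 1 replicate 1 (0.0446).

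Comp and Cilp are the cartilage-type members. Comp (chr8:70373558-70382066, plus strand) encodes cartilage oligomeric matrix protein, a pentameric thrombospondin family member that binds collagen. It measured 5.00, 3.78, 2.89 and 3.95 CPM at ISO baseline and 0.302, 0.136 and 0.875 CPM at ISO day 1, or 4 to 21 reads per treated library. Every treated heart was below every untreated one, and the log2 change was -3.19 (SE 0.50, edgeR adjusted p = 7.45e-06), a 9.15-fold lower level. In the LPS arm it measured 2.93, 2.25, 3.52 and 3.24 CPM at baseline and 0.521, 1.64, 0.455 and 1.33 CPM at day 1. The LPS hearts were also all below their baseline, with a log2 change of -1.61 (SE 0.40, adjusted p = 0.00123).

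Cilp (chr9:65265180-65280605, plus strand) encodes cartilage intermediate layer protein, a matrix protein that can bind TGF-beta. It measured 15.1, 15.6, 13.6 and 15.2 CPM at ISO baseline and 8.02, 6.50 and 11.9 CPM at ISO day 1. The treated hearts were all lower, yet the log2 change of -0.76 (SE 0.56) had an edgeR adjusted p of 0.239. Leaving out ISO day 7 replicate 3 gave the same change with an SE of 0.15 and an adjusted p of 1.20e-04. After LPS the fall was uniform: 14.7, 12.9, 17.1 and 18.2 CPM at baseline against 5.54, 5.28, 5.67 and 5.50 CPM at day 1. The log2 change was -1.51 (SE 0.54, adjusted p = 0.0168), a 2.85-fold lower level, with a spread of 2.96% between the 4 treated hearts (coefficient of variation).

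Ltbp2 (chr12:84783212-84876532, minus strand) encodes a fibrillin-like matrix protein of the latent TGF-beta binding family, which organises elastic fibres. It measured 4.60, 4.27, 3.70 and 4.67 CPM at ISO baseline and 11.8, 13.5 and 12.8 CPM at ISO day 1. The groups were well apart, at a log2 change of 1.56 (SE 0.63, edgeR adjusted p = 0.0349). The call was lost when any 1 of the 7 libraries of these groups was left out (adjusted p of 0.0549 to 0.0755), and without ISO day 7 replicate 3 the adjusted p was 4.72e-08 with an SE of 0.17. After LPS it went the other way, from 3.44, 3.33, 4.15 and 5.22 CPM to 1.49, 3.34, 1.86 and 2.15 CPM. Treated replicate 2 lay within the baseline range and the other 3 below it. The log2 change was -0.89 (SE 0.70, adjusted p = 0.269), and 2.13e-04 without ISO day 7 replicate 3.

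Acta2 (chr19:34241090-34255590, minus strand) encodes smooth muscle alpha-actin, the contractile actin of vessel walls and of myofibroblast stress fibres. It measured 123, 182.3, 130 and 183 CPM at ISO baseline and 491, 310 and 593 CPM at ISO day 1. Each treated heart was above every untreated heart, with a log2 change of 1.59 (SE 0.21, edgeR adjusted p = 8.27e-07), or 3.00-fold. In the LPS arm the values were 121, 133, 176 and 158 CPM at baseline and 144, 114, 206 and 130 CPM at day 1, which overlap, and the log2 change was 0.01 (SE 0.20). The standard error of Acta2 at ISO day 1 was 0.21 with and without ISO day 7 replicate 3, and that of Fap 0.27 and 0.28.

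Other genes bear on the Acta2 value. Myh11, the smooth muscle myosin heavy chain, fell at ISO day 1 by 1.30 on the log2 scale (SE 0.13, edgeR adjusted p = 1.02e-08). Tagln and Cnn1, which encode actin-binding proteins of smooth muscle, had log2 changes of -0.24 (adjusted p = 0.0942) and -0.17 (adjusted p = 0.476). Of the 10 smooth muscle markers, 2 were called higher and 5 lower, where 32.9% of all genes were called higher and 32.8% lower. Their summed level was 4516 to 5384 CPM at ISO day 1 against 2597 to 2829 CPM at baseline, with all markers detected. The marker that rose with the smallest adjusted p was Des, the intermediate filament desmin, which cardiomyocytes also express. Des dominates the sum: at ISO day 7 it averaged 2403 CPM of a mean sum of 2871 CPM. From ISO day 1 to day 7 it fell by 0.96 on the log2 scale. The rise of the sum is therefore not a rise of the smooth muscle markers as a set. The skeletal actin Acta1, whose protein is nearly identical to that of Acta2, measured 113 ± 31.0 CPM (SD, n = 4) in untreated hearts and 341 ± 73.8 CPM (SD, n = 3) a day after ISO. How reads were divided between such actins is not stated, so the Acta2 value is uncertain to that extent. At ISO day 7 Acta1 ranged from 28.2 to 292 CPM while Acta2 kept to 124 to 158 CPM. The part of smooth muscle cells in the Acta2 result was not tested.

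Meox1 (chr11:101877510-101894374, minus strand) encodes a homeobox transcription factor that drives stress-induced fibroblast activation. It measured 6.82, 8.73, 6.04 and 9.49 CPM at ISO baseline and 14.7, 16.9 and 12.0 CPM at ISO day 1. The hearts did not overlap, and the log2 change was 0.91 (SE 0.31, edgeR adjusted p = 0.0121), or 1.88-fold. Without ISO day 1 replicate 2, the highest of the 3, the change was 0.78 and the call was lost (adjusted p = 0.0587). After LPS its values of 7.96, 7.37, 9.97 and 8.48 CPM lay within the baseline values of 8.26, 6.27, 11.2 and 10.9 CPM (log2 change -0.11, SE 0.29).

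Fap (chr2:62500943-62574075, minus strand) encodes fibroblast activation protein, a membrane-bound prolyl protease used as an imaging and therapy target in activated fibroblasts. It measured 1.63, 2.18, 2.0 and 1.86 CPM at ISO baseline and 0.776, 0.715 and 0.791 CPM at ISO day 1. All treated hearts were lower, with a log2 change of -1.33 (SE 0.27, edgeR adjusted p = 1.62e-04). In the LPS arm it went from 2.14, 1.61, 2.33 and 2.85 CPM to 0.707, 0.946, 0.911 and 0.581 CPM. Again no heart overlapped, and the log2 change was -1.52 (SE 0.24, adjusted p = 8.30e-06). Fap was called lower at day 1 in both arms, and the difference between its changes, 0.19 (SE 0.37), was not called (adjusted p = 0.722).

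Whether the agents differed at day 1 was tested directly, as the ISO change minus the LPS change, each from its own baseline. Tnc, Ltbp2, Acta2 and Ccn4 were called higher after ISO, 4 of the 9, and none lower, where 19.5% of all genes were called in the upward and 18.2% in the downward direction. The difference was 3.28 on the log2 scale for Tnc (SE 1.05, edgeR adjusted p = 0.0167) and 1.57 for Acta2 (SE 0.29, adjusted p = 1.65e-04). For Ltbp2 it was 2.45 (SE 0.94, adjusted p = 0.0440), of which the part from LPS was a value below baseline. For Ccn4 it was 0.95 (SE 0.34, adjusted p = 0.0300), made of a small positive and a small negative value. Postn differed by 1.88 (SE 0.81) with an adjusted p of 0.0736, and of 1.01e-05 without ISO day 7 replicate 3. Without that library 7 genes were called in the upward direction, with Postn, Cilp and Meox1 added, and Comp in the downward one, against 20.1% and 18.9% of all genes. The Acta2 call held in every alternative run and the Tnc call in every one with an adjusted p. The Ltbp2 call was lost with library totals as the scaling (adjusted p = 0.0523), with limma on log2(TPM + 1) (0.0855), without any single library of the 4 compared groups other than LPS day 1 replicate 2 (0.0513 to 0.0796), and narrowly without an LPS day 7 library (0.05004 to 0.0505). The Ccn4 call was lost with pooled baselines (0.102) and without ISO baseline replicate 2 (0.0621), ISO day 1 replicate 2 (0.0889), LPS baseline replicate 3 (0.0761) or LPS day 1 replicate 3 (0.0606). Without any of those 4 libraries, 2 genes were left that were called higher. Comp was called lower after ISO without ISO day 1 replicate 3 (0.0118), LPS day 1 replicate 1 (0.0399) or LPS day 1 replicate 3 (0.0346).

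Genes of the same biology moved unevenly beside these 9. Over all genes, 32.9% were called higher and 32.8% lower at ISO day 1, and 33.2% and 33.0% at LPS day 1. Of 19 other activated fibroblast genes tested at ISO day 1, 9 were called higher and 4 lower. Timp1, an inhibitor of matrix metalloproteases, rose by 5.35 on the log2 scale (edgeR adjusted p = 6.60e-11) and Thbs1, a matricellular activator of latent TGF-beta, by 4.53 (4.40e-10). Lrrc15, a marker of TGF-beta-driven fibroblasts, fell by 4.14 (2.31e-11), with baseline hearts at 24.8 ± 3.15 CPM (SD, n = 4) and treated hearts at 1.40 ± 0.121 CPM (SD, n = 3). The collagen and elastic fibre genes gave 2 called higher and 4 lower of 14 at ISO day 1. At LPS day 1 they gave 0 higher and 12 lower of 14, with a median log2 change of -1.05. Of 15 resting fibroblast markers, 3 were called higher and 10 lower at ISO day 1, and 3 higher and 9 lower at LPS day 1. Their summed level was 1073 to 1314 CPM at ISO day 1 against 1956 to 2031 CPM at baseline, with all markers detected, and its part in the falls of Comp, Cilp and Fap was not tested.

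TGF-beta itself was measured beside Ltbp2. Tgfb2 rose by 2.06 on the log2 scale at ISO day 1 (edgeR adjusted p = 1.85e-08) and by 1.61 at LPS day 1 (3.29e-07). Tgfb1 rose by 0.83 at ISO day 1 (7.65e-06) and had a change of -0.11 at LPS day 1 (0.465). Tgfb3 was not called at ISO day 1 (-0.14, adjusted p = 0.560) and fell by 0.67 at LPS day 1 (0.00517). Of the 20 genes of the TGF-beta list, which also holds receptors and SMADs, 11 were called higher and 7 lower at ISO day 1. At LPS day 1 the counts were 9 and 7. The shares of all genes were 32.9% and 32.8% at ISO day 1, and 33.2% and 33.0% at LPS day 1. Among the CCN relatives of Ccn4, Ccn2, a TGF-beta and mechanical load target, rose by 2.57 at ISO day 1 (2.42e-05) and by 2.28 at LPS day 1 (5.35e-05). Its 4 LPS day 1 hearts ranged from 77.9 to 564 CPM.

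The matrifibrocyte list, which holds the relatives of Comp and Cilp, did not move as 1 group. Of 9 genes tested, 1 was called higher and 2 lower at ISO day 1, and 2 higher and 4 lower at LPS day 1. The shares of all genes were 32.9% and 32.8% at ISO day 1, and 33.2% and 33.0% at LPS day 1. Fmod, a small collagen-binding proteoglycan, fell by 2.75 on the log2 scale at ISO day 1 (edgeR adjusted p = 7.10e-05) and by 1.94 at LPS day 1 (3.16e-04). Thbs4, the thrombospondin most like Comp in domain plan, rose by 1.76 (0.00902) and 3.35 (7.26e-06). At LPS day 1 Thbs4 ranged from 30.7 to 58.4 CPM in hearts where Comp was at most 1.64 CPM.

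By day 7 after isoproterenol none of the 9 genes was called against baseline, a comparison in which 0.00636% of all genes (1 gene) was called and 863 had an unadjusted p under 0.05. In 3 of the 4 hearts the levels of Postn, Tnc and Cilp lay near those of untreated mice. Postn measured 14.9, 24.1 and 20.2 CPM in replicates 1, 2 and 4, and 221 CPM in replicate 3. Tnc measured 0.565, 1.90 and 1.27 CPM, and 19.1 CPM in replicate 3. Ltbp2 measured 2.54, 3.09 and 3.25 CPM, and 42.2 CPM in replicate 3. In Postn, Tnc and Ltbp2 a single heart stood 10.9-fold to 14.3-fold above the median of the others, and the remaining 3 hearts of Ltbp2 were all below the lowest untreated heart. Cilp measured 11.03, 14.8 and 14.9 CPM, and 119 CPM in replicate 3, an 8.04-fold excess.

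The other members were closer to their group in that heart. Comp was 5.42 CPM against 2.08, 3.26 and 1.79 CPM, and Meox1 was 18.7 CPM against 3.85, 9.20 and 8.84 CPM. Ccn4 was 2.82 CPM against 2.26, 1.66 and 1.16 CPM. These 3 genes were highest in replicate 3, by smaller margins. Fap at 2.43 CPM lay among its neighbours at 2.72, 2.95 and 1.94 CPM. For Fap, replicates 1, 2 and 3 were above the highest ISO baseline heart (2.18 CPM). Comp in replicates 1 and 4 and Meox1 in replicate 1 were below the lowest ISO baseline hearts (2.89 and 6.04 CPM). Acta2 at 158 CPM stood beside 124, 138 and 148 CPM and below the highest untreated hearts.

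Ranked over all 15732 genes by its excess in replicate 3 over the median of the other 3 hearts, Tnc had rank 9, Ltbp2 rank 11, Postn rank 14 and Cilp rank 22. Among genes averaging at least 5 CPM in the group, the 5 largest excesses were those of Tnc (3.83 on the log2 scale), Ltbp2 (3.74), Postn (3.45), Thbs4 (3.33) and Lox, the collagen cross-linking enzyme (3.01). That average includes replicate 3, which favours genes that are high in it. In the other hearts Tnc, Ltbp2, Thbs4 and Lox were at most 1.90, 3.25, 4.70 and 4.14 CPM, and passed only through replicate 3. Excesses of at least 2-fold were found in 6 of the 9 genes, 14 of 19 other activated fibroblast genes, 9 of 14 collagen and elastic fibre genes and all 10 cell division genes, against 3.27% of all genes. The same held for 5 of 10 macrophage markers, whose summed level was 334 CPM in the highest ISO day 7 library against 158 CPM in the lowest, with all 10 detected. It held for 1 of 15 resting fibroblast markers, and for none of the 10 smooth muscle, 10 pericyte, 10 cardiomyocyte, 10 endothelial, 8 valve and 8 Schwann cell markers. Of 9 matrifibrocyte genes 3 were at least 2-fold above, and of 20 TGF-beta genes 2. The 10 cell division genes were weakly expressed. They summed to 27.05 CPM in replicate 3 and 3.29, 13.0 and 5.30 CPM in replicates 1, 2 and 4. At LPS day 7 their sum was 17.8 to 67.3 CPM. Of 6 atrial markers tested, 2 were at least 2-fold above and 1 at least 2-fold below. The summed level of the atrial list was 292 CPM in replicate 3 against 128 to 182.3 CPM in the other 3 hearts, with all 8 genes of the list detected in the group, and Nppa, the atrial natriuretic peptide gene that ventricles also express under load, measured 228 CPM against 65.4 to 123 CPM. The part of macrophages or of atrial tissue in these values was not tested.

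**Figure D3:**
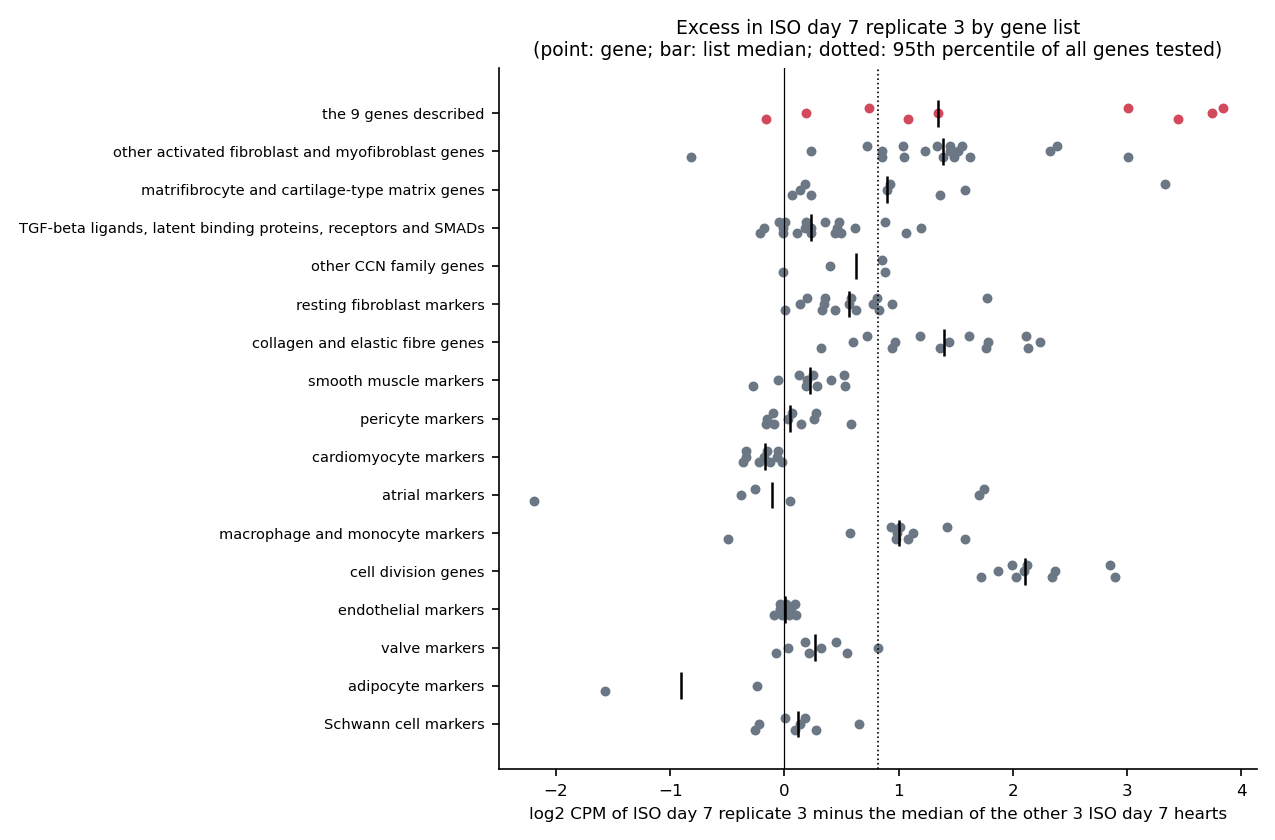
Log2 excess of ISO day 7 replicate 3 over the median of the other 3 ISO day 7 hearts for each gene (points) of each list, with list medians as bars and the 95th percentile of all tested genes, 0.82, as a dotted line. Tnc, Ltbp2, Postn and Cilp lie at 3.01 or more, cell division genes all lie above the dotted line, and smooth muscle, pericyte, cardiomyocyte and endothelial markers do not pass it.

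The heart that stood apart at day 7 did not carry the day 1 pattern. Postn, Ltbp2 and Cilp were higher in it than in any ISO day 1 heart (at most 77.3, 13.5 and 11.9 CPM). Tnc was lower in it than in any ISO day 1 heart (at least 24.4 CPM). Comp, at or below 0.875 CPM in the day 1 hearts, was above all 4 untreated ISO hearts, and Acta2, at or above 310 CPM at day 1, was in the untreated range. With a single such heart this is a description of 1 library.

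**Figure D4:**
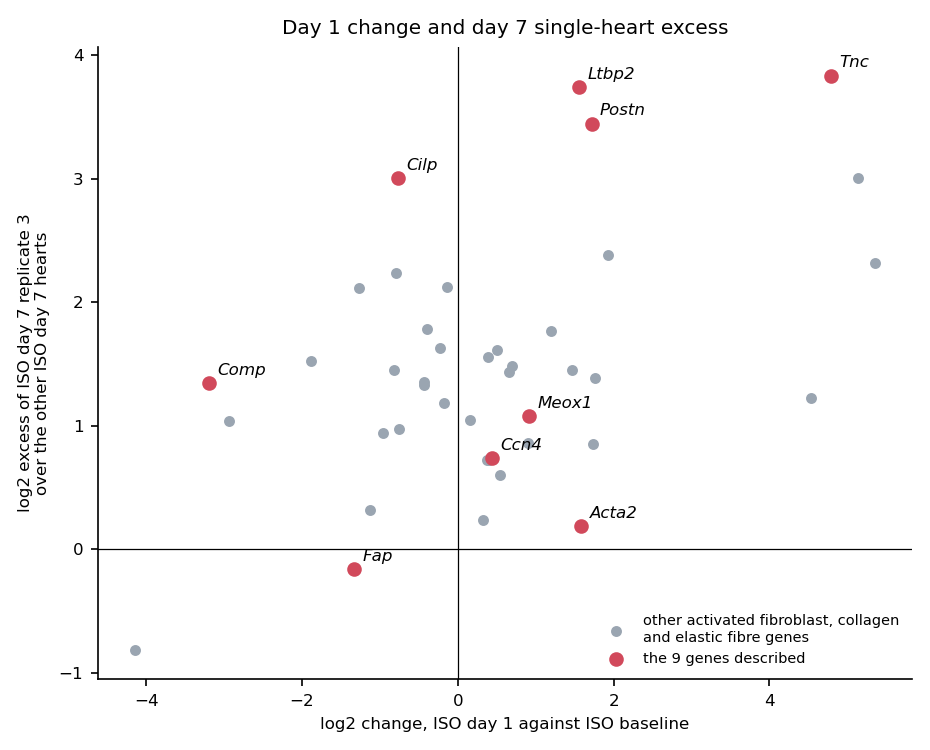
Log2 change at ISO day 1 (horizontal) against the log2 excess of ISO day 7 replicate 3 (vertical) for the 9 genes in red and other activated fibroblast, collagen and elastic fibre genes in grey. Tnc is high on both axes, Cilp and Comp are below 0 at day 1 and above 0 in the single heart, and Acta2 is above 1.5 at day 1 and near 0 in the single heart.

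Set against ISO day 1, the ISO day 7 hearts had Comp, Fap and Cilp called higher and Tnc and Acta2 called lower, 3 and 2 of the 9, where 33.2% of all genes were called higher and 31.9% lower. Comp rose by 2.88 on the log2 scale (SE 0.50, edgeR adjusted p = 2.95e-05) and Fap by 1.72 (SE 0.26, adjusted p = 5.17e-06). Acta2 fell by 1.71 (SE 0.21, adjusted p = 2.90e-07) and Tnc by 2.50 (SE 0.59, adjusted p = 7.32e-04). Postn (0.02, SE 0.56) and Ltbp2 (0.02, SE 0.60) were not called with replicate 3 included. Without it they fell by 1.81 (SE 0.21, adjusted p = 1.78e-07) and 2.10 (SE 0.19, adjusted p = 3.46e-09). Tnc then fell by 4.71 and Meox1 fell by 1.00. The counts were then 3 higher and 5 lower, against 32.8% and 31.8% of all genes. The rise of Cilp was 2.20 (SE 0.56, adjusted p = 0.00163) with that heart and 0.63 (SE 0.16, adjusted p = 0.00144) without it.

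At day 7 after lipopolysaccharide none of the 9 genes was called against baseline either, where 5.96% of all genes were called higher and 3.13% lower, and no heart stood apart. Postn measured 26.3, 29.96, 32.4 and 29.5 CPM, with 3 of the 4 hearts above the highest of the baseline hearts (log2 change 0.49, SE 0.55, edgeR adjusted p = 0.650). Meox1 measured 11.2, 12.6, 16.7 and 13.1 CPM and was the one gene of the 9 whose hearts did not overlap with baseline, against 10.7% of all genes separated upward. Its log2 change was 0.56 (SE 0.28, adjusted p = 0.249). Tnc measured 2.04, 3.60, 3.61 and 2.33 CPM, with a log2 change of 1.01 (SE 0.74, adjusted p = 0.457), and an adjusted p of 0.0407 without ISO day 7 replicate 3, when it was the 1 member called and 7.23% of all genes were called higher, and 0.0229 in a fit of the LPS baseline and day 7 groups alone. That last fit also called Meox1 (0.0346).

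The remaining 6 genes had LPS day 7 hearts that overlapped with baseline. Comp measured 3.72, 2.97, 2.07 and 3.85 CPM, Cilp 16.1, 18.4, 17.9 and 16.9 CPM, and Fap 1.59, 2.93, 1.93 and 3.37 CPM. Ltbp2 measured 4.58, 3.57, 3.61 and 4.13 CPM, Acta2 192, 122, 121 and 140 CPM, and Ccn4 2.21, 1.73, 1.97 and 1.49 CPM. Their log2 changes ran from -0.30 for Ccn4 to 0.14 for Cilp. In the same hearts all 10 cell division genes and all 10 macrophage markers were called higher, where 5.96% of all genes were. The macrophage markers summed to 292 to 359 CPM against 163 to 192 CPM at LPS baseline. The collagen and elastic fibre genes summed to 1837 to 2080 CPM against 1206 to 1663 CPM. For the other activated fibroblast genes the sums overlapped, at 684 to 863 CPM against 521 to 697 CPM. Scaling by library totals shifts the median of all genes in this comparison by 0.16 on the log2 scale, and under it Acta2 and Ltbp2 changed sign, to 0.12 and 0.13.

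From LPS day 1 to day 7, Comp, Cilp, Fap and Meox1 were called higher and none lower, 4 and 0 of the 9, where 33.9% of all genes were called higher and 32.5% lower. The log2 changes were 1.68 for Comp (SE 0.40, edgeR adjusted p = 8.09e-04), 1.65 for Cilp (SE 0.54, adjusted p = 0.00946), 1.66 for Fap (SE 0.24, adjusted p = 2.46e-06) and 0.67 for Meox1 (SE 0.29, adjusted p = 0.0446). The Meox1 call was lost with DESeq2 (0.0648) and without single libraries, namely ISO day 1 replicate 1, LPS day 1 replicates 1, 2 or 4, and LPS day 7 replicates 2, 3 or 4 (0.0507 to 0.130). Without ISO day 7 replicate 3, 6 genes were called higher, against 34.4% of all genes. The ISO and LPS changes at day 7 were not called different for any of the 9, where 0.458% of all genes were called.

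The genes most like each member over the 23 libraries were taken by the smallest root mean square distance between log2 levels centred on their means. Postn was nearest to Mfap5, a microfibril protein (0.40), and to Ltbp2 (0.40), and without ISO day 7 replicate 3 Mfap5 was still the nearest (0.22). Comp was nearest to Fmod (0.46) with and without that library, and Meox1 to Sparc, a collagen-binding matricellular protein (0.22 with and without it). Cilp was nearest to Mfap4, an elastic fibre protein (0.41), and without that library to Ltbp4 (0.17), with Mfap4 no longer among its 3 nearest genes. Tnc was nearest to Pi15 (0.70 with the library, 0.51 without), Acta2 to the lamin gene Lmna (0.25 and 0.26) and Fap to Arsk (0.27), or Matn2 without the library (0.28). Ccn4, at a distance of 0.28 from Plekhg3 when its own spread was 0.34, followed no gene closely. Among the 9 genes themselves the closest pair was Postn and Ltbp2 (0.40), and without that library Postn and Acta2 (0.36) and Cilp and Fap (0.39) were closer than Postn and Ltbp2 (0.41). The most distant pair was Tnc and Comp (2.62 with the library, 2.67 without).

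Transcript usage gave a readout that the read level does not fix. The deposited gene length is weighted by the abundance of a gene's transcripts, and it varied between libraries for 7 of the 9 genes. In exact 2-sided permutation tests of the 4 treated groups against their own baselines, none of the 28 comparisons passed an adjusted p of 0.05 and none had an unadjusted p under 0.05. The smallest p was 0.0571, which is the smallest that 3 against 4 hearts allow (0.0286 for 4 against 4). It belonged to Ltbp2 at ISO day 1, with lengths of 5544 to 6720 bases against 6769 in every baseline heart. With these limits and 28 comparisons an adjusted p under 0.05 was hardly reachable, so no conclusion is drawn from the lack of calls. Antisense transcripts overlap Tnc, Meox1 and Ltbp2 in GENCODE, and the files assigned them at most 2 reads in a library.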

How the data were processed

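Poly-A RNA of 23 mouse hearts was sequenced. Per the file headers, the authors deposited for each library estimated counts of reads per gene, TPM, and other values, namely gene length and effective length in bases. Per the submitters' processing notes, the tools were bcl2fastq, DRAGEN, edgeR and limma and the build was mm10. Versions, strand setting and annotation: not given in the sources used here. Of 55487 identifiers, 55141 matched GENCODE M21. Estimated counts, 9.50% of them not whole, were rounded and tested with edgeR 4.0.16 in R 4.3.3 (TMM scaling, filterByExpr with a minimum count of 10, 1 model of 6 group means, quasi-likelihood test, 2-sided). A call is a Benjamini-Hochberg adjusted p under 0.05 over all genes tested. The standard error of a log2 change was derived from the F value. Levels are TMM-scaled CPM, and excess and likeness used log2 CPM with a prior count of 2. The members, lists, tests and alternatives were chosen with earlier results of these data known. Every member is named, with, per list, up to 3 called genes of smallest adjusted p and genes needed beside a member, the 3 nearest genes per member and the 5 largest excesses of ISO day 7 replicate 3. Each library was taken as 1 mouse, the unit over which p-values are computed, and the 2 comparisons with a baseline in an arm share its hearts. Residual degrees of freedom were 17. The procedure was tested on simulated data. Alternatives used DESeq2 1.42.0 and limma 3.58.1, and exact tests scipy 1.17.1 in Python 3.11.15. Replicate numbers did not pair libraries: the deviations of same-numbered libraries of different groups had a median correlation of 0.0015. Depth limits the weakest genes, such as Comp at ISO day 1.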

Additional observations from a re-analysis of the deposited data

Results flagged for a closer look

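In 4 of the 45 gene and group combinations of 4 hearts, the gap between a single heart and its nearest neighbour relative to the range of the group exceeded the 95% critical value of Dixon's test, which chance exceeds in about 1 in 20 groups. All 4 were the same library, ISO day 7 replicate 3. Postn stood at 221 CPM, Tnc at 19.1 CPM, Cilp at 119 CPM and Ltbp2 at 42.2 CPM, each above every other heart of the group. The gap to the nearest heart was 0.956, 0.928, 0.964 and 0.982 of the whole range of the group.

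The changes at day 1 differed between the agents, by the interaction test of edgeR, for 4 of the 9 genes, where 19.5% of all genes were called higher and 18.2% lower. The ISO change exceeded the LPS change by 3.28 on the log2 scale for Tnc (adjusted p = 0.0167), 1.57 for Acta2 (1.65e-04), 2.45 for Ltbp2 (0.0440) and 0.95 for Ccn4 (0.0300).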

How the results depend on the processing

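Comparisons with baseline are named by arm and day, and changes are on the log2 scale. Scaling by DESeq2's size factors in edgeR and a filter of at least 1 CPM in 3 libraries altered no direction or call of a member. With library totals, ISO day 7 had 0 genes lower, LPS day 7 had 2421 genes higher and 90 lower (938 and 493 as reported) and the day 7 difference between arms 9 higher; Acta2 was -0.000562 at LPS day 1, and Acta2 and Ltbp2 0.12 and 0.13 at LPS day 7. DESeq2 gave no adjusted p for Postn, Tnc, Cilp and Ltbp2. It had 2 members higher at ISO day 1, 1 lower from ISO day 1 to 7, 2 higher from LPS day 1 to 7, and 2 higher and 1 lower in the day 1 difference. Its gene counts were 1 higher at ISO day 7, 742 lower at LPS day 7, 178 higher and 138 lower between baselines, and 48 and 93 in the day 7 difference. Without its outlier filter, an alternative chosen after seeing the data, these were 1, 741, 178, 138, 48 and 93, with 1 member higher at LPS day 1 and 1 lower in the day 1 difference. No filter on low counts gave 1 gene higher at ISO day 7, 1 member higher at LPS day 1, 1 lower in the day 1 difference and Acta2 -0.00143 at LPS day 1. Fitting only the compared groups gave 0 genes lower at ISO day 7, 1445 higher and 1155 lower at LPS day 7, 366 and 335 between baselines and 24 higher in the day 7 difference, with 1 member higher at LPS day 1, 2 at LPS day 7 and 7 in the day 1 difference.

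With limma-voom Acta2 was -0.00897 at LPS day 1, and Postn and Ltbp2 -0.94 and -1.10 from ISO day 1 to 7. Effective-length offsets gave -0.0145 for Acta2 at LPS day 1, -0.00736 and -0.0872 for Postn and Ltbp2 from ISO day 1 to 7, and 327 genes lower at LPS day 7. On log2(TPM + 0.1) with limma, ISO day 7 had 0 genes lower, LPS day 7 1883 higher and 33 lower, LPS day 1 to 7 2902 lower, the day 1 difference 1833 lower and the day 7 difference 2 higher. Acta2 was -0.0459 at LPS day 1 and 0.16 at LPS day 7, Ltbp2 0.17 at LPS day 7, and Postn and Ltbp2 -0.94 and -1.09 from ISO day 1 to 7. With a pseudocount of 1 the gene counts were 0, 2249 and 41, 2993, 1868 and 2 higher with 97 lower, and the changes -0.0451, 0.16, 0.0739, -0.87 and -0.48. Pooling the baselines gave 2 genes higher at ISO day 7, 852 lower at LPS day 7, 578 and 657 in the day 7 difference, 1 member higher at LPS day 1, and Meox1 0.0026 and Acta2 -0.0241 at LPS day 1, Comp -0.13 at LPS day 7 and Fap -0.0305 in the day 1 difference. With replicate number as a block, Postn and Ltbp2 were -0.40 and -0.37 from ISO day 1 to 7 and Meox1 was called in the day 1 difference (1.06, adjusted p = 0.0413); the block changed no other call of a member. Replicate numbers were not treated as pairs: 7 of 23 libraries correlated best with their own number. The cause of these shifts was not tested.

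Leaving out 1 library at a time, members called higher numbered 3 to 5 at ISO day 1, 0 to 1 at LPS day 1, 0 to 1 at LPS day 7 and 2 to 7 in the day 1 difference. Members called lower numbered 3 to 5 at LPS day 1, 2 to 5 from ISO day 1 to 7 and 0 to 1 in the day 1 difference. Genes numbered 0 to 1 lower at ISO day 7, 456 to 1133 higher and 165 to 656 lower at LPS day 7, 70 to 153 higher and 33 to 93 lower between baselines, and 6 to 72 higher and 33 to 248 lower in the day 7 difference. At ISO day 7 the changes ranged from -0.0922 to 2.07 for Postn, -0.13 to 1.74 for Cilp, -0.0855 to 0.67 for Meox1 and -0.54 to 1.92 for Ltbp2. From ISO day 1 to 7 they ranged from -1.81 to 0.36 for Postn and -2.10 to 0.36 for Ltbp2. At LPS day 1 Acta2 ranged from -0.19 to 0.12. At LPS day 7 Comp ranged from -0.0401 to 0.23, Fap from -0.0483 to 0.30, Acta2 from -0.21 to 0.0584 and Ltbp2 from -0.10 to 0.13.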
